A study of Mus musculus and Homo sapiens with 30 samples.

Results

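The genes described here store and release neutral lipid. The 10 mouse genes are Plin2, Plin3, Hilpda, Gpam, Lpin1, Dgat1, Dgat2, Pnpla2, Lipe and Mgll, and the 5 human genes are PLIN2, HILPDA, DGAT1, DGAT2 and PNPLA2. They were taken by name, or by Ensembl ID for the human genes, from the 56980 mouse and 61552 human gene IDs of the count tables; the rule uses no measured value, but the genes were proposed with earlier results of these data known. All 10 mouse IDs and all 5 human IDs were present. After the filter on low counts, 9 of 10 mouse genes were tested in E0771 (Dgat2 was too low), 9 of 10 in NMuMG (Mgll was too low) and 5 of 5 in SkBr3.

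RNA was sequenced from 30 libraries of 3 established cell lines. SkBr3 is a human breast cancer line (4 libraries in each medium), E0771 a mouse mammary tumour line and NMuMG a line derived from mouse mammary gland epithelium (3 libraries in each medium of each), although the labels list every line as breast cancer. Cells were plated below confluency, grown for 36 h and then kept for 16 h in control medium or in a mixture holding 50% conditioned medium (secretome) of inguinal, that is subcutaneous, adipocytes from a lean or an obese source, made up with the line's own growth medium. The growth medium was DMEM with fetal bovine serum, and that of NMuMG also held added glucose and insulin, so a difference between the mouse lines cannot be told apart from a difference of medium. The species that gave the adipocytes and the fatty acid content of the secretomes are not given in the labels. The labels also do not say that replicates came from separate cultures, so p-values measure the spread between these libraries, which may be technical.

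Cells esterify fatty acids to glycerol in steps: GPAM adds the first acyl chain to glycerol-3-phosphate, lipins such as LPIN1 remove the phosphate, and DGAT1 and DGAT2 add the last chain to make triglyceride. The product is kept in lipid droplets, whose surface carries perilipins; PLIN2 is the general coat protein and is stabilized by droplets, PLIN3 moves between cytosol and nascent droplets, and HILPDA is a small droplet protein that inhibits PNPLA2. PNPLA2 (also called ATGL), LIPE (hormone-sensitive lipase) and MGLL (monoglyceride lipase) remove the acyl chains in turn. Plin2 and Hilpda are known targets of the fatty acid sensing PPAR receptors, and HILPDA is also a known target of hypoxia-inducible factors.

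The sequences upstream of the transcription start are shown for the 4 mouse members that the results turn on: 3 that were higher with lean secretome in at least 1 mouse line and Lpin1, which was lower in E0771. Each is the 250 bases before a RefSeq start site in build GRCm38.p6, read 5′ to 3′ on the gene's strand, and capitals mark a match to a nuclear receptor half-site (AGGTCA, or TGACCT on the other strand) or to the core of the hypoxia response element (ACGTG). The windows are Plin2 at chr4:86670060-86670309 (minus strand), Hilpda, second start site, at chr6:29272376-29272625 (plus), Pnpla2 at chr7:141454938-141455187 (plus) and Lpin1 at chr12:16610967-16611216 (minus).
Plin2: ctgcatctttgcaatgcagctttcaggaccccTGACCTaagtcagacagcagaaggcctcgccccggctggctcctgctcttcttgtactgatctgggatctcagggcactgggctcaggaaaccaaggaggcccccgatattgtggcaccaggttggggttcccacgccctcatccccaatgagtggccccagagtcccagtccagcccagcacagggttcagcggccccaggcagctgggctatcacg
Hilpda: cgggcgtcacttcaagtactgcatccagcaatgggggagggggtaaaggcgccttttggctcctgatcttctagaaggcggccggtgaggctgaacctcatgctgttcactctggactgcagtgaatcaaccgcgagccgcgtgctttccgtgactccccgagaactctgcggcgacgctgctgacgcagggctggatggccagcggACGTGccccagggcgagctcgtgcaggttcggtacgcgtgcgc
Pnpla2: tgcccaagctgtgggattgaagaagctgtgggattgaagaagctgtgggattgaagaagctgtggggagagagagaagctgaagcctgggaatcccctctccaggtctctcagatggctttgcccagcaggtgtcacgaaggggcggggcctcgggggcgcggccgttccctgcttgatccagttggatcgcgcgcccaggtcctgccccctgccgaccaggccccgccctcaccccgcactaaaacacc
Lpin1: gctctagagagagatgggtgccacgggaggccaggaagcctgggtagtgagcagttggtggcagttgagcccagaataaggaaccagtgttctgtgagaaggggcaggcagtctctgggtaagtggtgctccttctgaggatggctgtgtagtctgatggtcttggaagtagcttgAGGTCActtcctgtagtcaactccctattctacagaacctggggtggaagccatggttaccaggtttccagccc

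RefSeq windows were matched for 8 of the 10 mouse members, with 12 start sites between them; Dgat1 and Dgat2 had no entry. The half-site stood at -218 to -213 from the Plin2 start, on the minus strand of the window, and at -74 to -69 from the Lpin1 start, on its plus strand. A further half-site stood at -196 to -191 of the second Gpam start site. Among 32851 promoter windows of the same length, 14.0% held a half-site on either strand. ACGTG stood at -43 to -39 of the second Hilpda start site and also upstream of Lipe and Mgll, where it lay within an E-box (CACGTG) at 1 start site of each; 16.6% of all windows held ACGTG and 6.02% held CACGTG. The full direct repeat of the half-site with 1 base between the copies (DR1, the element bound by PPAR with RXR) was in none of the 12 windows and in 0.0335% of all windows. No searched motif was found in the windows of Pnpla2, Plin3, the first Hilpda and Gpam start sites and the second Lipe start site. Among members with a half-site in a window, Plin2 was higher with lean than with obese secretome in E0771, and Lpin1 and Gpam were lower. Among those without one, Hilpda, Pnpla2 and Lipe were higher in that comparison, and Plin3 and Mgll were lower. Such matches describe letters only, and a part of the half-site in these changes was not tested.

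Library totals were between 18479433 and 29195499 counts in SkBr3, 22929035 and 31094119 in E0771 and 23966897 and 29686456 in NMuMG. Levels are given as CPM (counts scaled to a common library size, from the counts in tested genes and the TMM factor). The tests gave log2 fold changes with a standard error (SE) and a p-value adjusted over all tested genes of the line by the Benjamini-Hochberg method (edgeR's quasi-likelihood test), and a change was called at an adjusted p under 0.05. On the first principal component, obese replicate 1 lay furthest of the obese libraries towards the lean ones in every line, at 30.6% of the way from control to lean in SkBr3, 20.0% in E0771 and 32.8% in NMuMG. Of 8 epithelial marker genes, 7 passed the filter in NMuMG but only Krt8 did in E0771, where Epcam and Cdh1 were near 0 (at most 3 and 8 counts in a library). Summed adipocyte markers (10 genes) were between 0.822 and 1.61 CPM in E0771. In NMuMG they were between 2.97 and 3.69 CPM with lean, 1.12 and 1.86 CPM with obese secretome and 1.74 and 2.12 CPM in control medium. Cfd, Lep, Pck1 and Plin1 were at 0 there in all 3 media, and Car3 and Retn with both secretomes. Only Cidec and Plin4 passed the filter there, and both also stand on the list of other droplet genes below. Mean Cidec was 0.549 CPM in control medium, 0.636 with obese and 2.02 with lean secretome. Mean Plin4 was 1.28, 0.819 and 1.31 CPM in the same order. In NMuMG 5 of the 7 epithelial markers tested (Cdh1, Krt8, Krt18, Krt19 and Cldn4) were called higher with lean than with obese secretome, beside 17.6% of all genes. The sum over all 8 was between 7914 and 8134 CPM with lean, 6850 and 7224 CPM with obese secretome and 7177 and 7612 CPM in control medium. Between obese secretome and control, 2 of the 7 were called lower, beside 5.01% of all genes called in either direction. Of the 3 mesenchymal markers tested in NMuMG, Vim and Col1a1 were called lower with lean than with obese secretome, beside 17.4% of all genes. The summed mesenchymal markers of E0771 (6 genes) were between 2270.3 and 2506 CPM with lean and between 3432 and 3744 CPM with obese secretome. The part of these markers in the results below was not tested, and in bulk RNA fewer cells with a transcript and less transcript per cell cannot be told apart.

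In control medium the mouse lines held the genes at different levels. Per kilobase of merged exon, so that genes can be compared with each other, Plin3 was the highest in E0771 at 37.8 ± 1.95 CPM per kb (SD, n = 3), followed by Plin2 at 15.8 ± 1.80 and Pnpla2 at 13.9 ± 0.547, which overlapped within their SD. Hilpda (9.70 ± 0.898) and Dgat1 (8.52 ± 0.566) overlapped in the same way, and Gpam (7.02 ± 0.218), Lpin1 (3.02 ± 0.0349), Mgll (2.68 ± 0.0875) and Lipe (1.40 ± 0.0967) followed. In NMuMG Plin2 was the highest at 48.9 ± 0.889 CPM per kb, with Pnpla2 (22.9 ± 1.55) and Plin3 (22.4 ± 0.101) next and not separated. Hilpda (9.54 ± 0.764), Dgat1 (8.36 ± 0.147), Gpam (8.02 ± 0.112) and Dgat2 (3.76 ± 0.107) followed, and Lpin1 (1.60 ± 0.107) and Lipe (1.44 ± 0.129) were the lowest of the tested genes and overlapped. The order of the droplet coat genes therefore differed: Plin3 led Plin2 in E0771 and Plin2 led Plin3 in NMuMG.

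In a joint fit of the 18 mouse libraries, 5 of the 8 members expressed in both lines differed between the lines in control medium, where 80.5% of all 16529 tested genes did. Relative to NMuMG, E0771 was lower for Plin2 (log2 difference -1.75, SE 0.064, adjusted p = 8.17e-17), Pnpla2 (-0.85) and Gpam (-0.32), and higher for Lpin1 (0.79) and Plin3 (0.63). Hilpda (-0.11), Dgat1 (-0.09) and Lipe (-0.16) did not pass the test. The other two members were near 0 in 1 line each. Dgat2 had summed counts of 976 in the 3 NMuMG control libraries and 1 in those of E0771, a ratio of 891.7 (95% interval 159.7 to 35257.5, counting error only). Mgll had 1047 in E0771 and 4 in NMuMG, a ratio of 286.5 (111.6 to 1053.4). NMuMG thus had transcripts of both acyltransferases of the last step and hardly any of the monoglyceride lipase, and E0771 had transcripts of Dgat1 and Mgll and hardly any of Dgat2.

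**Figure D1:**
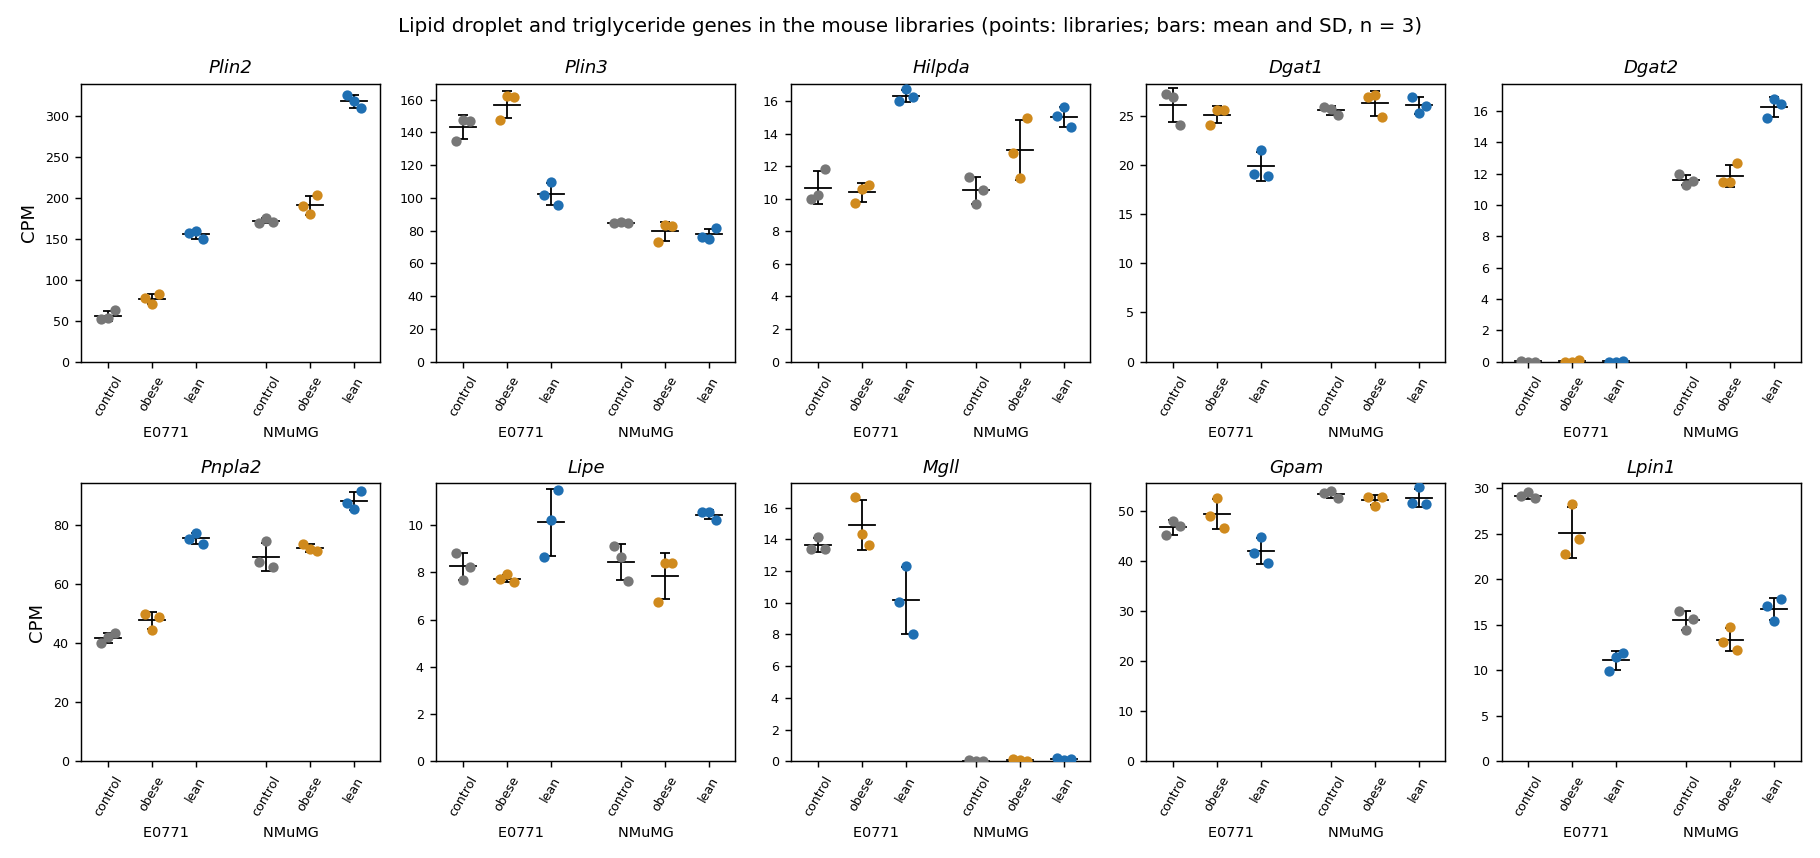
Level of each of the 10 mouse genes (CPM, linear axis from 0) in control medium and with obese or lean secretome, in E0771 and NMuMG; points are libraries, bars mean and SD, n = 3. Plin2 stands highest with lean secretome in both lines (149 to 159 CPM in E0771, 309 to 325 CPM in NMuMG), and Lpin1 is lowest with lean secretome in E0771 only.

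Plin2, the droplet coat gene, was the member with the largest rise. In E0771 it was at 51.4, 52.7 and 62.9 CPM in control medium, at 77.2, 70.1 and 82.0 CPM with obese secretome and at 157, 159 and 149 CPM with lean secretome. The 3 media did not overlap, and control, obese and lean stood in rising order. The lean level was 2.03-fold the obese level (log2 fold change 1.02, SE 0.067, adjusted p = 2.36e-09) and 2.79-fold the control level (1.48, SE 0.069, adjusted p = 2.56e-11). Obese secretome also raised Plin2, 1.38-fold over control (0.46, SE 0.071, adjusted p = 0.00257). In NMuMG, which started from a higher level, Plin2 was at 169, 175 and 171 CPM in control medium, 189, 179.9 and 203 CPM with obese and 325, 318 and 309 CPM with lean secretome. Again no medium overlapped another. Plin2 rose 1.66-fold from obese to lean (0.74, SE 0.037, adjusted p = 9.66e-17) and 1.85-fold from control to lean (0.89, SE 0.037, adjusted p = 2.35e-19). Its rise with obese secretome was 1.11-fold (0.15, SE 0.038, adjusted p = 0.0111). That last call was lost without NMuMG control replicate 1 (adjusted p = 0.101), control replicate 3 (0.0528) or obese replicate 3 (0.168) and in the joint fit (0.21).

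Plin3, the perilipin that shuttles from the cytosol, went the other way in E0771. It was at 135, 148 and 147 CPM in control medium, 147, 162 and 161 CPM with obese and 102, 109.6 and 95.8 CPM with lean secretome. Every lean library was below every other library. Plin3 fell by 0.62 on the log2 scale from obese to lean (SE 0.052, adjusted p = 1.30e-09) and by 0.48 from control to lean (SE 0.052, adjusted p = 4.03e-08), and the obese to control difference did not pass (0.13, 95% interval 0.03 to 0.23, adjusted p = 0.196). In NMuMG Plin3 was at 84.3, 85.1 and 84.7 CPM in control medium, 73.0, 83.3 and 82.8 CPM with obese and 76.3, 75.1 and 81.6 CPM with lean secretome. The lean and obese libraries overlapped (log2 fold change -0.04, 95% interval -0.13 to 0.05, adjusted p = 0.558). Lean was lower than control by a small amount (-0.13, SE 0.046, adjusted p = 0.028), a call that was lost without any of control replicates 1, 2 and 3 or lean replicates 1 and 2, under DESeq2 and in the joint fit (adjusted p up to 0.116).

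Hilpda, the inhibitor of PNPLA2, rose with lean secretome in both mouse lines. In E0771 it was at 9.99, 10.3 and 11.8 CPM in control medium, 9.76, 10.6 and 10.8 CPM with obese and 16.0, 16.7 and 16.3 CPM with lean secretome. The lean libraries stood apart, while control and obese overlapped. Hilpda was 1.57-fold higher with lean than with obese secretome (0.65, SE 0.086, adjusted p = 8.26e-07) and 1.53-fold higher than in control medium (0.61, SE 0.087, adjusted p = 1.52e-06), and obese secretome left it near control (-0.03, interval -0.21 to 0.15, adjusted p = 0.907). In NMuMG Hilpda was at 11.3, 9.67 and 10.6 CPM in control medium, 12.8, 11.3 and 15.0 CPM with obese and 15.1, 15.7 and 14.4 CPM with lean secretome. Lean was 1.43-fold above control (0.51, SE 0.091, adjusted p = 2.07e-05), but obese replicate 3 lay within the lean range and the lean to obese difference did not pass (0.21, SE 0.090, adjusted p = 0.0713). Without that library it passed (0.33, adjusted p = 0.00964). The obese to control difference (0.31, adjusted p = 0.0475) was called although the groups overlapped, and it was lost in 8 of 12 alternatives. These included those without control replicates 1 (adjusted p = 0.0631), 2 (0.233) and 3 (0.124) and without obese replicates 1 (0.0792) and 3 (0.392).

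Of the genes of triglyceride synthesis, Lpin1 changed most in E0771. Its product, a phosphatidate phosphatase, also acts as a transcriptional coactivator in the nucleus. In E0771 Lpin1 was at 29.1, 29.5 and 28.9 CPM in control medium, 22.7, 28.3 and 24.4 CPM with obese and 9.90, 11.5 and 11.9 CPM with lean secretome. The lean level was far below the other two groups, which also did not overlap each other. Lpin1 fell by 1.18 on the log2 scale from obese to lean (SE 0.086, adjusted p = 6.86e-11) and by 1.39 from control to lean (SE 0.085, adjusted p = 2.47e-12). The obese to control difference did not pass (-0.22, SE 0.078, adjusted p = 0.161). In NMuMG Lpin1 was at 16.5, 14.4 and 15.6 CPM in control medium, 13.1, 14.7 and 12.2 CPM with obese and 17.0, 15.4 and 17.8 CPM with lean secretome. There lean was above obese, with no overlap (0.33, SE 0.083, adjusted p = 0.00207), and lean and control overlapped (0.11, adjusted p = 0.315). Lpin1 was thus lower with lean than with obese secretome in E0771 and higher in NMuMG.

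Gpam and Dgat1 moved less than Lpin1 in E0771. Gpam, which adds the first acyl chain, was at 45.2, 48.1 and 47.0 CPM in E0771 control medium, 49.1, 52.7 and 46.6 CPM with obese and 41.6, 44.9 and 39.6 CPM with lean secretome. It fell by 0.23 on the log2 scale from obese to lean (SE 0.059, adjusted p = 0.00178), with no overlap. Its fall from control (-0.16, adjusted p = 0.0298) was lost under DESeq2 (0.0795) and without control replicate 2 (0.104), control replicate 3 (0.0876), lean replicate 1 (0.07) or lean replicate 3 (0.121). In NMuMG the 9 Gpam values ran from 51.1 to 54.8 CPM and no comparison passed (log2 fold changes from -0.03 to 0.01). Dgat1 showed the same division between the lines. It was at 27.2, 26.9 and 24.1 CPM in E0771 control medium, 24.1, 25.6 and 25.6 CPM with obese and 19.1, 21.5 and 18.9 CPM with lean secretome. All lean libraries were below the rest, a fall of 0.34 from obese (SE 0.072, adjusted p = 0.000323) and of 0.40 from control (SE 0.072, adjusted p = 4.87e-05). In NMuMG Dgat1 stayed between 24.8 and 27.1 CPM in all 9 libraries (lean against obese -0.01, interval -0.13 to 0.11).

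Dgat2, the other acyltransferase, could be followed in NMuMG only. It was at 12.0, 11.3 and 11.5 CPM in control medium, 11.5, 11.5 and 12.7 CPM with obese and 15.6, 16.8 and 16.4 CPM with lean secretome. Lean libraries were all higher than the rest. Dgat2 rose 1.37-fold from obese to lean (0.45, SE 0.080, adjusted p = 2.46e-05) and 1.40-fold from control to lean (0.49, SE 0.078, adjusted p = 4.93e-06), and obese and control overlapped (0.04, adjusted p = 0.893). In E0771 each library had at most 2 counts of Dgat2, and lean secretome did not bring it to a measurable level: its summed count there was 2 against 1328 in NMuMG, a ratio of 706.2 (95% interval 195.1 to 5837.6, counting error only).

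Among the lipases, Pnpla2, which starts triglyceride breakdown, rose with lean secretome in both mouse lines. In E0771 it was at 40.0, 42.2 and 43.3 CPM in control medium, 49.9, 44.5 and 48.8 CPM with obese and 75.5, 77.3 and 73.7 CPM with lean secretome. The 3 media did not overlap. Lean was 1.58-fold above obese (0.66, SE 0.053, adjusted p = 3.25e-10) and 1.80-fold above control (0.85, SE 0.054, adjusted p = 4.65e-12). The obese to control difference missed the threshold (0.19, SE 0.056, adjusted p = 0.0687). It passed with no filter on low counts (0.0345), under DESeq2 (0.0449), in the joint fit (0.0279) and without control replicate 3 (0.043) or obese replicate 2 (0.0224). In NMuMG Pnpla2 was at 67.5, 74.6 and 65.7 CPM in control medium, 73.7, 71.8 and 71.1 CPM with obese and 87.4, 85.6 and 91.6 CPM with lean secretome. Lean stood above both other media, 1.22-fold over obese (0.29, SE 0.045, adjusted p = 4.46e-06) and 1.27-fold over control (0.35, SE 0.045, adjusted p = 9.42e-08).

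Lipe, hormone-sensitive lipase, had low levels that rose by a like amount in both lines. It was at 8.82, 7.68 and 8.24 CPM in E0771 control medium, 7.72, 7.91 and 7.58 CPM with obese and 8.65, 10.2 and 11.5 CPM with lean secretome. Lean exceeded obese without overlap (0.39, SE 0.11, adjusted p = 0.00376) but overlapped control. The lean to control call (0.30, adjusted p = 0.0218) was lost under DESeq2 (0.057) and without E0771 control replicate 2 (0.106) or lean replicate 3 (0.15). In NMuMG Lipe was at 9.10, 8.63 and 7.61 CPM in control medium, 6.73, 8.41 and 8.39 CPM with obese and 10.5, 10.5 and 10.2 CPM with lean secretome. It rose from obese to lean (0.41, SE 0.10, adjusted p = 0.00155) and from control to lean (0.30, SE 0.098, adjusted p = 0.0131), the second of which was lost without control replicate 3 (0.0987). The annotated exons of Lipe share 15.6% of their bases with 4732471J01Rik on the other strand, which had 1003 counts over the mouse libraries against 4275 for Lipe. The strand setting of the counting is not given in the sources used here, so reads of the pair may not be told apart.

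Mgll, whose product acts on the last acyl chain, could be followed in E0771 only, where it fell. It was at 13.4, 14.1 and 13.4 CPM in control medium, 16.7, 14.3 and 13.7 CPM with obese and 10.1, 12.3 and 8.05 CPM with lean secretome. No lean library reached another group. Mgll fell by 0.56 on the log2 scale from obese to lean (SE 0.12, adjusted p = 0.000468) and by 0.43 from control to lean (SE 0.12, adjusted p = 0.00426). In NMuMG its summed counts over 3 libraries were 4 in control medium, 6 with obese and 12 with lean secretome.

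Counted together, all 9 tested members were called between lean and obese secretome in E0771, 4 higher (Plin2, Hilpda, Pnpla2 and Lipe) and 5 lower (Plin3, Gpam, Lpin1, Dgat1 and Mgll), where 52.7% of all 13813 tested genes were called. Their libraries did not overlap for 9 of 9 members, against 60.1% of all genes. Lean against control gave the same 4 higher and 5 lower, against 56.3% of all genes. Obese against control gave 1 call, Plin2, against 2.61%. In NMuMG 5 of 9 tested members were called between lean and obese, all higher (Plin2, Lpin1, Dgat2, Pnpla2 and Lipe), where 35.0% of 15014 genes were called. Lean against control gave 5 higher (Plin2, Hilpda, Dgat2, Pnpla2 and Lipe) and 1 lower (Plin3), against 38.2%, and obese against control 2 higher (Plin2 and Hilpda), against 5.01%. Both lean comparisons share their lean libraries, and both comparisons with control share the control libraries, so these counts are not independent of each other. The median log2 fold change of the tested members between lean and obese was -0.23 in E0771 and 0.29 in NMuMG, beside 0.0035 and -0.0023 for all tested genes. The tested sets differ by Dgat2 and Mgll. The E0771 median is the value of Gpam, in a range from -1.18 to 1.02 with both rises and falls. The NMuMG range was -0.04 to 0.74.

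**Figure D2:**
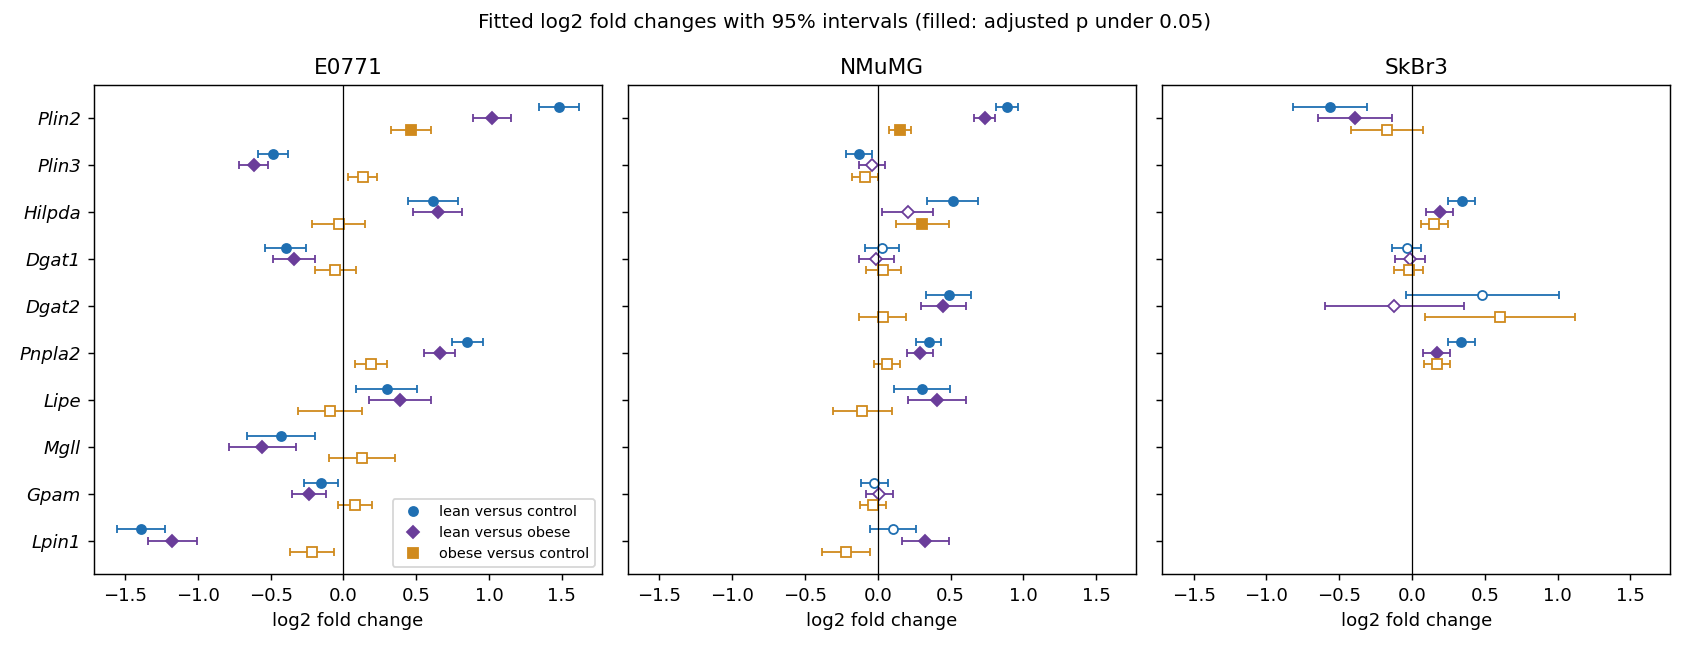
Fitted log2 fold change (horizontal axis) of each gene for lean against control, lean against obese and obese against control in E0771, NMuMG and SkBr3; bars span 95% intervals and filled symbols have an adjusted p under 0.05. The E0771 changes run from -1.39 for Lpin1 to 1.48 for Plin2, while the NMuMG changes run from -0.22 for Lpin1 to 0.89 for Plin2 and most obese against control symbols are open.

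The response to lean secretome differed between the mouse lines for most members when the difference itself was tested as an interaction. For lean against obese, 7 of the 8 members expressed in both lines had a different response, where 34.2% of 16529 genes did. The E0771 response minus the NMuMG response was positive for Hilpda (log2 difference 0.46, SE 0.13, adjusted p = 0.00435), Pnpla2 (0.39, SE 0.071, adjusted p = 2.71e-05) and Plin2 (0.30, SE 0.085, adjusted p = 0.00853): these rose more in E0771 on the log2 scale. It was negative for Lpin1 (-1.49, SE 0.12, adjusted p = 1.88e-12), Plin3 (-0.56, SE 0.074, adjusted p = 1.94e-07), Dgat1 (-0.31, SE 0.094, adjusted p = 0.00749) and Gpam (-0.23, SE 0.075, adjusted p = 0.0144). The Gpam call was lost without E0771 lean replicate 3 (0.0554), E0771 obese replicate 2 (0.0781) or NMuMG lean replicate 2 (0.0522). The Lipe difference did not pass (interval -0.30 to 0.29). For lean against control, 5 of the 8 differed (Plin2 0.62, Pnpla2 0.53, Plin3 -0.33, Dgat1 -0.40 and Lpin1 -1.47), beside 34.5% of all genes; Hilpda did not (0.13, interval -0.13 to 0.38). For obese against control edgeR's quasi-likelihood test called 0 of the 8, beside 1.69%. DESeq2 called 1, and Plin2 (0.32, adjusted p = 0.0799), Plin3 and Hilpda had an unadjusted p under 0.05 (0.00179, 0.00369 and 0.019).

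The human line was compared within its own table, and its genes are known here by ID alone. PLIN2 (ENSG00000147872) fell with lean secretome. It was at 11.3, 10.4, 10.0 and 10.4 CPM in control medium, 7.82, 9.96, 9.69 and 9.83 CPM with obese and 7.84, 6.95, 9.09 and 4.99 CPM with lean secretome. All lean libraries were below all control libraries, whereas obese replicate 1 lay among the lean ones. PLIN2 was lower with lean secretome than in control medium (-0.56, SE 0.13, adjusted p = 0.00126) and than with obese secretome (-0.39, SE 0.13, adjusted p = 0.0191). The second call no longer passed when lean replicate 2 (adjusted p = 0.0531) or 4 (0.0793, log2 fold change -0.24) was left out, nor when obese replicate 3 (0.0533) or 4 (0.0558) was. The obese libraries were also all below the control ones, but the difference did not pass (-0.17, SE 0.13, adjusted p = 0.591).

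HILPDA (ENSG00000135245) and PNPLA2 (ENSG00000177666) rose with lean secretome in SkBr3. HILPDA was at 64.9, 64.5, 70.6 and 67.9 CPM in control medium, 71.3, 74.2, 77.2 and 74.8 CPM with obese and 90.4, 86.7, 78.1 and 84.0 CPM with lean secretome. The 3 media did not overlap, in the order control, obese, lean. Lean was 1.14-fold above obese (0.19, SE 0.046, adjusted p = 0.00203) and 1.27-fold above control (0.34, SE 0.047, adjusted p = 3.24e-06). PNPLA2 was at 155, 163, 166 and 152 CPM in control medium, 187, 168, 172 and 187 CPM with obese and 196, 198, 190.1 and 219 CPM with lean secretome. It too showed 3 levels without overlap, with lean 1.12-fold above obese (0.17, SE 0.046, adjusted p = 0.00496) and 1.27-fold above control (0.34, SE 0.047, adjusted p = 3.14e-06). Obese against control did not pass for HILPDA (0.15, adjusted p = 0.118) or PNPLA2 (0.17, adjusted p = 0.0702). In a fit of those groups alone both passed (0.016 and 0.00452), and PNPLA2 also passed with no filter, under DESeq2 and without obese replicate 2 (0.0334).

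DGAT1 (ENSG00000185000) stayed between 42.7 and 50.0 CPM in the 12 SkBr3 libraries, and no comparison passed (lean against obese -0.01, interval -0.12 to 0.09). DGAT2 (ENSG00000062282) was low, at most 1.55 CPM in a library. It was at 0.654, 0.737, 0.932 and 0.912 CPM in control medium, 0.678, 1.23, 1.37 and 1.55 CPM with obese and 1.10, 1.20, 1.34 and 0.905 CPM with lean secretome. Its groups overlapped and no difference passed (lean against control 0.48, adjusted p = 0.141; obese against control 0.61, adjusted p = 0.295). In SkBr3 3 of 5 members were thus called between lean and obese, 2 higher and 1 lower, beside 44.1% of 14874 tested genes. Lean against control gave the same 2 higher and 1 lower, beside 48.8%. Obese against control gave 0 calls in edgeR's quasi-likelihood test, beside 1.16%; 3 members had an unadjusted p under 0.05 and DESeq2 called 1.

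**Figure D3:**
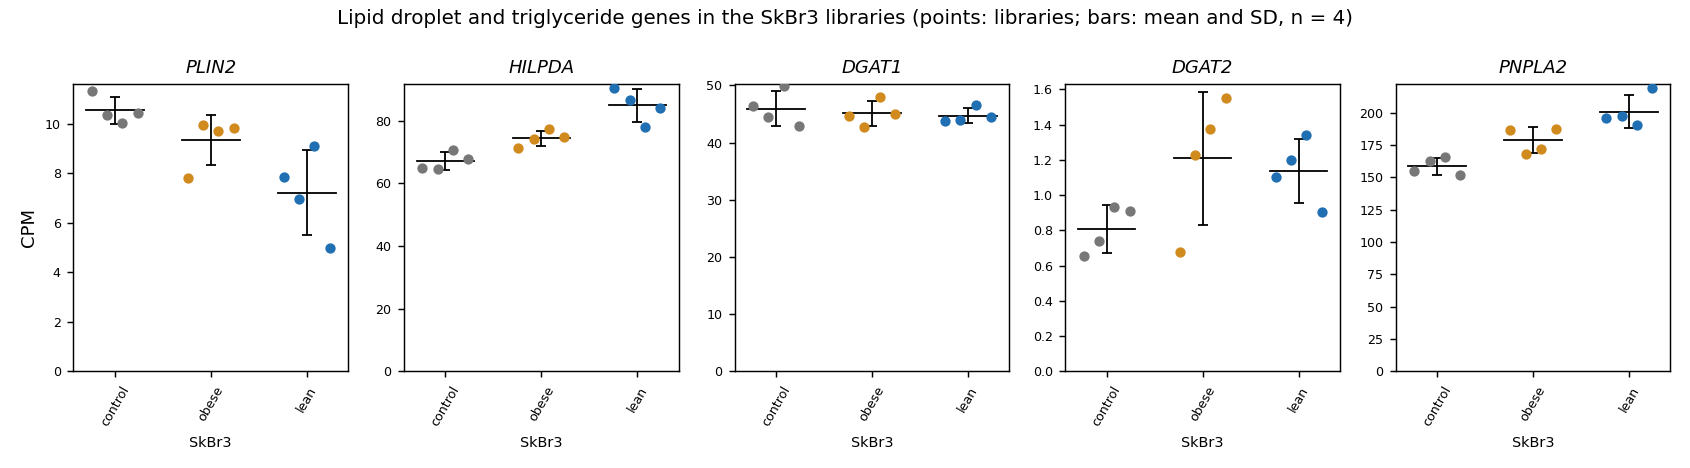
Level of the 5 human genes (CPM, linear axis from 0) in the SkBr3 libraries in control medium and with obese or lean secretome; points are libraries, bars mean and SD, n = 4. PLIN2 is lowest with lean secretome (4.99 to 9.09 CPM), while HILPDA and PNPLA2 step up from control to obese to lean.

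PNPLA2 was thus the gene, among the 4 measured at testable levels in all 3 lines (PLIN2, HILPDA, DGAT1 and PNPLA2), that was called higher with lean secretome against both other media in every line. HILPDA was called higher against control in every line and against obese secretome in E0771 and SkBr3. PLIN2 was called higher in both mouse lines and lower in SkBr3. This contrast across species was not tested, since the tables were fitted apart.

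The other genes of droplets and glycerolipid metabolism were read from a list of 38 genes of the mouse table. In E0771 24 of them were tested; between lean and obese 15 were called higher and 3 lower, with a median log2 fold change of 0.18, beside 25.8% of all genes called higher and 26.9% lower. In NMuMG 29 were tested, with 17 higher and 3 lower and a median of 0.19, beside 17.6% and 17.4% of all genes. Between obese and control 1 was higher in E0771, the PNPLA2 coactivator Abhd5 (0.20, adjusted p = 0.0317), beside 2.61% of all genes called. That call was lost without control replicate 1 (0.214) or 2 (0.0649) or obese replicate 1 (0.169) or 3 (0.0786). In NMuMG 2 were lower: Soat2, an enzyme of cholesterol ester synthesis (-0.31, adjusted p = 0.0219), and Acsl3 (-0.14, adjusted p = 0.0189), beside 5.01% of all genes called. Both calls were lost without control replicate 1 (0.18 and 0.143) or obese replicate 3 (0.159 and 0.111), Soat2 also under DESeq2 (0.0583), and Acsl3 also without control replicate 3 (0.0521) and in the joint fit (0.117). Of 24 genes tested in both lines, 9 were higher with lean secretome in both: Fitm2, which helps droplets bud from the endoplasmic reticulum, the droplet proteins Aup1 and Faf2, the acyltransferases Gpat3, Agpat3, Agpat5 and Mogat2, the phosphatase Lpin3 and the lysosomal lipase Lipa. Acsl3, an acyl-CoA synthetase of nascent droplets, was lower in both. Among the 12433 genes of the table tested in both lines, 6.47% were called higher in both and 8.12% lower in both. The calls were opposite for 3 genes, beside 8.20% of all: Ldah was higher in E0771 and lower in NMuMG, and Hsd17b11 and Agpat2 were lower in E0771 and higher in NMuMG. Their interactions were called for Ldah (0.58, adjusted p = 7.83e-10), Hsd17b11 (-0.84, adjusted p = 8.20e-07) and Agpat2 (-0.46, adjusted p = 2.69e-05).

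The largest rises of that list in E0771 were those of Agpat5 (0.84, SE 0.058, adjusted p = 3.50e-11), Mogat2 (0.84, SE 0.31, adjusted p = 0.0247) and Acsl1 (0.75, SE 0.062, adjusted p = 4.79e-10). Agpat5 was at 73.7, 71.7 and 71.3 CPM with lean secretome and at 44.0, 36.9 and 40.4 CPM with obese. Mogat2 was near 1 CPM, its groups overlapped, and its call was lost under DESeq2 (0.0738) and without lean replicate 1 (0.115) or 3 (0.0538) or obese replicate 1 (0.0865) or 2 (0.131). The largest falls were those of Acsl3 (-0.58, SE 0.058, adjusted p = 2.83e-08), Hsd17b11 (-0.52, SE 0.13, adjusted p = 0.00166) and Agpat2 (-0.14, adjusted p = 0.0286). The Agpat2 call was lost in 7 of 12 alternatives: with no filter, under DESeq2, in the joint fit, and without lean replicate 1 (0.0574) or 3 (0.0729) or obese replicate 1 (0.0938) or 3 (0.0646).

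In NMuMG the largest rises were those of Cidec, which fuses droplets (1.66, SE 0.30, adjusted p = 4.40e-05), Mogat2 (1.13, SE 0.16, adjusted p = 7.24e-07) and Lpin3 (0.62, SE 0.16, adjusted p = 0.00239). Cidec, which also stands among the adipocyte markers, was at 0.638, 0.688 and 0.320 CPM in control medium, 0.973, 0.290 and 0.646 CPM with obese and 2.00, 2.08 and 1.98 CPM with lean secretome. The lean values were low but even. The largest fall was that of G0s2, a second inhibitor of PNPLA2, at 6.88, 7.76 and 6.51 CPM in control medium, 4.36, 6.50 and 6.69 CPM with obese and 2.03, 2.34 and 1.48 CPM with lean secretome. G0s2 fell by 1.58 on the log2 scale from obese to lean (SE 0.17, adjusted p = 1.13e-08) and by 1.84 from control (SE 0.17, adjusted p = 1.47e-10). The G0s2 count was at most 1 in any E0771 library, and so was that of Cidec. Acsl3 (-0.24, SE 0.037, adjusted p = 2.64e-06) and Ldah (-0.14, SE 0.043, adjusted p = 0.0108) were the other falls, the latter lost without obese replicate 3 (0.0573). The inhibitors of PNPLA2 therefore moved apart in NMuMG, Hilpda up against control and G0s2 down.

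**Figure D4:**
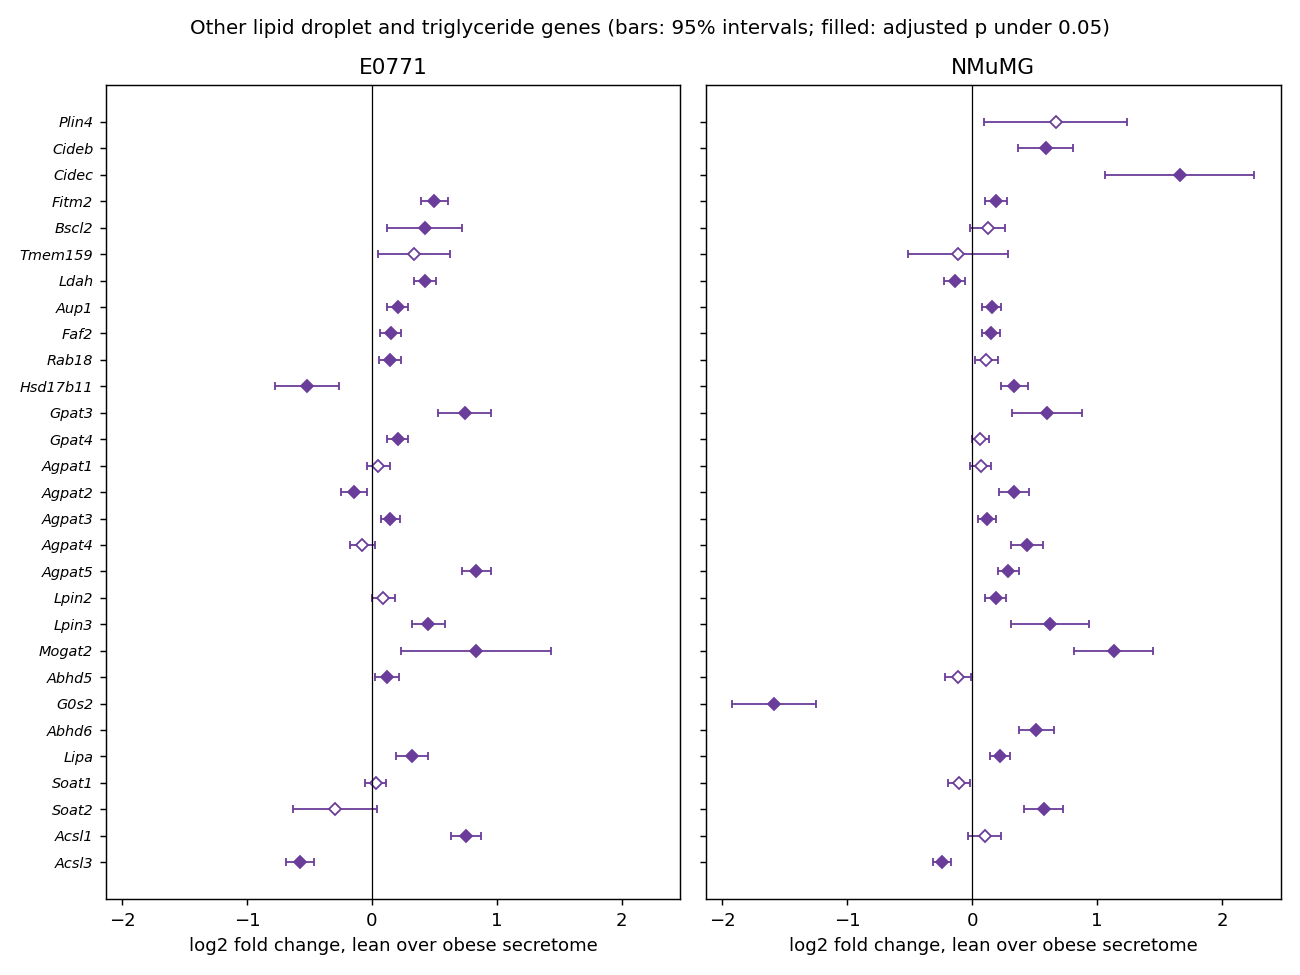
Fitted log2 fold change of lean over obese secretome (horizontal axis) for the other droplet and glycerolipid genes tested in E0771 or NMuMG; bars span 95% intervals and filled symbols have an adjusted p under 0.05. Symbols mostly lie right of 0, with Acsl3 left of 0 in both lines and G0s2 far left in NMuMG (-1.58).

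Genes with a pattern like that of Plin2 over the mouse libraries were ranked among 9288 genes by the smaller of the Pearson correlations of log2 CPM over the 9 E0771 and the 9 NMuMG libraries. These values describe libraries that share the same 3 media and carry no test. Angptl4, which encodes a secreted inhibitor of lipoprotein lipase, came first (r = 0.979 in E0771 and 0.982 in NMuMG), followed by Gsto1 (0.978 and 0.975), Rras2 (0.989 and 0.975), Cdkn1a (0.974 and 0.980) and Ccne1 (0.968 and 0.973). Angptl4 was at 16.8, 16.6 and 18.1 CPM in E0771 control medium, 28.5, 17.3 and 26.8 CPM with obese and 132, 136 and 131 CPM with lean secretome. In NMuMG it was at 9.67, 10.5 and 10.1 CPM, 17.4, 13.8 and 15.1 CPM, and 40.8, 39.1 and 36.1 CPM in the same order of media. The genes most like Hilpda were Psmd1 (0.952 and 0.955), Grsf1 (0.948 and 0.926), Glrx3 (0.933 and 0.925), Ifrd1 (0.940 and 0.923) and Snx10 (0.940 and 0.922). No other member was among the 5 genes most like either.

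Since Plin2 and Hilpda are known PPAR or hypoxia targets, lists of such genes were read beside them. Of 16 PPAR target genes, 10 were tested in each line. Against control, lean secretome gave 8 higher and 1 lower in E0771 (median log2 fold change 0.41), beside 27.3% of all genes higher and 29.0% lower, and 8 higher and 0 lower in NMuMG (median 0.38), beside 19.1% and 19.1%. Obese secretome against control gave 3 higher in E0771 (Cpt1a, Slc25a20 and Acaa2), beside 2.61% of all genes called, but 0 without control replicate 1 and 1 without control replicate 2. Between lean and obese, 3 were higher (Angptl4, Acot2 and Slc25a20) and 1 lower (Acadm) in E0771 (median 0.11), beside 25.8% and 26.9% of all genes, so the count of rises was near the share of all genes. In NMuMG 9 were higher and 0 lower (median 0.54), beside 17.6% and 17.4%. Cpt1a, the gatekeeper of mitochondrial fatty acid import, was at 71.4, 73.5 and 78.1 CPM in E0771 control medium, 101, 96.4 and 118 CPM with obese and 116, 125 and 102 CPM with lean secretome. It rose there with both secretomes over control (0.62 with lean and 0.50 with obese), and lean and obese overlapped (0.12, adjusted p = 0.251). In NMuMG Cpt1a was at 176, 179 and 176 CPM in control medium, 178, 162 and 168 CPM with obese and 269, 267 and 274 CPM with lean secretome, and it rose with lean secretome over control (0.61) and over obese (0.67, SE 0.035, adjusted p = 2.39e-16). The lines differed in the lean to obese response (-0.54, adjusted p = 0.000245) and in the obese to control response (0.58, adjusted p = 0.00487), while the lean to control difference did not pass (0.04, interval -0.15 to 0.23). Of 13 hypoxia genes, 7 were higher and 2 lower (Vegfa and Ndrg1) of 13 tested in E0771 between lean and obese (median 0.30), beside 25.8% and 26.9% of all genes. In NMuMG 3 were higher (Vegfa, Egln3 and Slc2a1) and 4 lower (Pdk1, Ndrg1, P4ha1 and Pfkfb4) of 11 tested (median -0.09), beside 17.6% and 17.4%. Lean against control gave 7 higher and 2 lower of 13 tested in E0771, beside 27.3% and 29.0% of all genes. In NMuMG it gave 3 higher and 3 lower of 11 tested, beside 19.1% and 19.1%. Between lean and obese, the largest rise of the list in E0771 was that of Adm (2.15). It was at 24.4 ± 5.45 CPM with obese and 108 ± 16.5 CPM with lean secretome (SD, n = 3). Adm was not among the 11 genes of the list tested in NMuMG, so no response of it was measured there. In the same comparison Slc2a1, the glucose transporter, was higher in both lines (0.78 in E0771 and 0.33 in NMuMG). Ndrg1 was lower in both (-0.30 and -0.37), and Vegfa was lower in E0771 (-0.26) and higher in NMuMG (0.48). The genes named from both lists were chosen after their values were seen.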

How the data were processed

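Poly(A) RNA of 30 libraries was sequenced with a directional kit on an Illumina NovaSeq. The authors deposited 1 human and 1 mouse table of raw counts per Ensembl gene ID. Per the submitters' processing notes, cutadapt 1.16, STAR 2.7.9a and featureCounts 1.6.3 were used, and GRCm39 is the build named for all samples, SkBr3 included. The strand setting, the annotation release and the build used for the human counts are not given in the sources used here, so no coordinate is tied to a count. Every count column was matched to a sample, with 0 left out.

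Mouse symbols came from GENCODE M21, which named 52073 of 56980 IDs with 99.7% of the counts. Merged exon lengths and overlaps came from the same GRCm38 annotation, and promoter windows from RefSeq (GRCm38.p6). Each line was fitted alone over its 3 media in edgeR 4.0.16 (R 4.3.3, limma 3.58.1) with filterByExpr, TMM factors (0.987 to 1.02), robust dispersions and a quasi-likelihood F test. P-values were adjusted over all genes tested: 14874 in SkBr3, 13813 in E0771, 15014 in NMuMG and 16529 in the joint fit of 18 mouse libraries used for interactions and levels between lines. Intervals are 95%, from the SE, and ratios between near-zero counts have 95% intervals covering counting error only. Replicates of a group differed beyond counting error, with chi-square values of 1.99 to 15.4 times their degrees of freedom. The median SE of a log2 fold change was 0.0725 in E0771, 0.0706 in NMuMG and 0.0766 in SkBr3 for obese against control.

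Alternatives were DESeq2 size factors within edgeR, no filter, DESeq2 1.42.0, a replicate block, a fit of only the groups compared, the joint fit and leaving out each library. Scripts were tested on simulated data. The text names every member, the up to 3 largest called rises and falls of the other droplet list between lean and obese in each mouse line, and the 5 genes most like Plin2 and Hilpda whose mean log2 CPM is 2 or more in both lines; genes named by a shared or opposite call are given as members of those counts. The members and lists were chosen with earlier results of these data known. A result of the PPAR target list in NMuMG is not reported here.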

Additional observations from a re-analysis of the deposited data

Results flagged for a closer look

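Among 15 groups of SkBr3 libraries checked (5 genes in 3 media), 1 held a library far from the others. PLIN2 with obese secretome was at 7.82 CPM in replicate 1, while the other three libraries lay between 9.69 and 9.96 CPM, so that the gap took 0.877 of the range. Chance flags about 1 in 20 groups. Groups of 3 libraries, and so the mouse lines, were not checked.

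The responses of E0771 and NMuMG differed by a test of the difference itself in 12 cases, over comparisons that share their lean libraries. Of all tested genes, 34.2% differed in this way for lean against obese secretome and 34.5% for lean against control. For lean against obese secretome, the E0771 minus NMuMG log2 difference was 0.30 for Plin2, 0.46 for Hilpda and 0.39 for Pnpla2, which rose more in E0771 on the log2 scale. It was -0.56 for Plin3, -0.31 for Dgat1 and -0.23 for Gpam, which fell in E0771 and did not pass in NMuMG, and -1.49 for Lpin1, which fell in E0771 and rose in NMuMG. Lipe did not pass. The Gpam call of edgeR's quasi-likelihood test was lost without E0771 lean replicate 3 (adjusted p = 0.0554), E0771 obese replicate 2 (0.0781) or NMuMG lean replicate 2 (0.0522). For lean secretome against control the differences were 0.62 for Plin2, 0.53 for Pnpla2, -0.33 for Plin3, -0.40 for Dgat1 and -1.47 for Lpin1. Hilpda, Lipe and Gpam did not pass in that comparison.

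PLIN2 of SkBr3 and Plin2 of the mouse lines moved in opposite directions without overlap of the groups. The SkBr3 log2 fold change was -0.56 for lean against control and -0.17 for obese against control, the latter not past the threshold, while both were positive in E0771 and in NMuMG. This difference between species was not tested.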

How the results depend on the processing

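Over 1299 alternative values of 101 member results, 1246 stayed on their side of the threshold, 35 lost and 18 gained a call, and none reversed a called direction; in 29 values called in neither fit the sign differed. For the other droplet genes, 1798 of 1908 stayed, 81 lost and 29 gained a call, with 48 such sign differences. Over all alternatives the median of all genes moved by at most 0.0254 (log2), in the joint fit. DESeq2 size factors within edgeR moved it by at most 0.0166.

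Member counts moved by over 1.5 times in obese against control comparisons. In SkBr3 (0 calls) there was 1 with no filter, 1 under DESeq2, 2 in a fit of those groups alone and 0 to 1 with a library left out. In E0771 (1 call) there were 2 with no filter, 2 under DESeq2, 2 in the joint fit and 1 to 2 with a library left out. In NMuMG (2 calls) there was 1 under DESeq2, 1 in a fit of those groups alone, 0 in the joint fit and 0 to 3 with a library left out. For the interaction (0 calls) there were 2 with no filter, 1 under DESeq2 and 0 to 1 with a library left out. The cause was not tested.

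Within each line, deviations of same-numbered libraries of different media correlated little. The correlations ran from -0.0452 to 0.0523 over 12 pairs in SkBr3, -0.0942 to 0.110 over 9 in E0771 and -0.0285 to 0.0250 over 9 in NMuMG. Among all libraries of the other media, one of the same number correlated best for 1 of 12, 5 of 9 and 4 of 9 libraries. Some such matches arise by chance, and these counts were not tested. With the replicate block the members called between lean and obese were 3 in SkBr3, 9 in E0771 and 5 in NMuMG, as without it.

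Dgat2 in E0771 and Mgll in NMuMG had at most a few counts in a library and were not tested there.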
